A study of Saccharomyces cerevisiae with 4 samples.

Results

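The expression profile of yeast that lived on Ssa4 was compared directly with that of yeast that lived on Ssa3, the pair of stress-inducible members of the cytosolic Hsp70-Ssa family. The ratio of the Ssa4 intensity to the Ssa3 intensity was formed for the 5773 features measured on both arrays, out of 5794 on the chip. The features described are the 236 that differed by more than 2-fold and had a normalized intensity of at least 100 on both arrays, out of 3644 that met this limit. Both strains derive from the haploid S. cerevisiae strain G402 (MATa, with ade2-1, SUQ5, kar1-1 and the marker mutations ura3, trp1, lys2, leu2 and his3), in which the chromosomal SSA1, SSA2, SSA3 and SSA4 are all replaced by the markers KanMX, HIS3, TRP1 and URA3. Each strain carries 1 SSA gene on a low-copy LEU2 plasmid under the SSA2 promoter, so SSA3 and SSA4 were not under their own heat-inducible promoters here. The cells were [psi-] and grew at 30°C without stress, in exponential phase by the sample labels and overnight by the study's methods. Strains with Ssa1 or Ssa2 as the sole Ssa, made in the same way, were the other 2 of the 4 arrays of the series, and their intensities are printed beside those of Ssa3 and Ssa4. RNA from several extractions was pooled, so each strain is 1 array without a replicate. The ratios therefore have no error and no test, the spread between cultures of 1 strain was not measured, and the number of arrays limits the precision.

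Hsp70 proteins bind short hydrophobic stretches of unfolded or nascent polypeptides and release them in a cycle of ATP hydrolysis that J-proteins start and nucleotide exchange factors end. In wild-type yeast SSA1 and SSA2 are expressed during normal growth, whereas SSA3 and SSA4 are switched on by heat and other stress, and the cell needs at least 1 of them to live. The cytosolic Ssa proteins also hold back the heat shock factor Hsf1, and they work with Hsp90 and with the Hsp110 proteins Sse1 and Sse2.

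Of the 3644 features that met the limit, 104 (2.85%) were more than 2-fold higher in Ssa4 than in Ssa3 and 132 (3.62%) were more than 2-fold lower. The middle 95% of the log2 ratios of these 3644 features lay between -1.11 and 1.04, around a median of 0.08. Most of the differences were between 2-fold and 3-fold, and 12 of the higher and 34 of the lower features exceeded 3-fold. The higher feature nearest to the threshold was SCS0390606, at 104 in Ssa3 and 208 in Ssa4, and GTT2 lay just outside it with a ratio of 1.997. On the lower side NTR2 lay just inside with a ratio of 0.499, and ETR1 just outside with a ratio of 0.502. A gene name could be given to 52 of the higher and 83 of the lower features, all of them genes listed by the study for a change from Ssa1 in at least 1 strain. Among the 442 named genes with at least 100 on both arrays, 11.8% were higher and 18.8% were lower in Ssa4 than in Ssa3, and these shares, not those of all features, are the background for the gene groups that follow. Counted by direction alone, 265 of the 442 named genes had a higher and 177 a lower intensity in Ssa4. For the 3644 features these counts were 2063 and 1581. Of the features left without a name, 1.62% were more than 2-fold higher and 1.53% more than 2-fold lower. With the limit met on at least 1 array, 3.42% of 4039 features were higher and 4.73% lower, with 21.7% of the 544 named genes lower, and with no limit 2.74% and 6.65% of 5773. SSA2, which both strains lack, read 1.21 in Ssa3 and 2.38 in Ssa4, against 2505 in the strain with Ssa2. This value cannot tell the Ssa3 array from the Ssa4 array, and features for the other SSA genes were not analysed here.

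**Figure D1:**
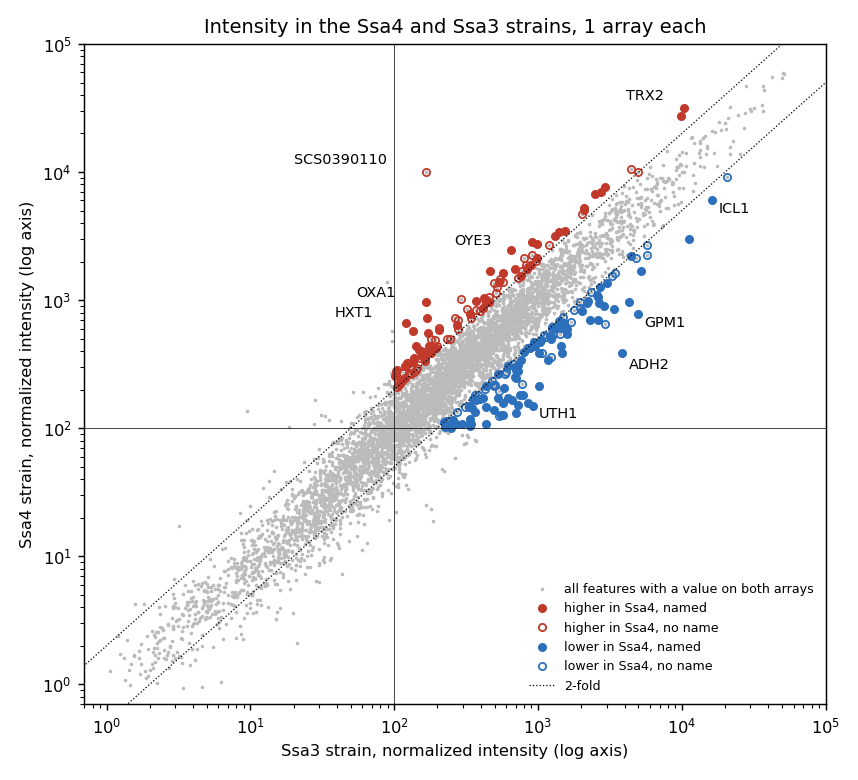
Normalized intensity of all features measured on both arrays, Ssa3 strain on the horizontal and Ssa4 strain on the vertical axis (log axes), with the 104 higher and 132 lower features in colour, filled where named. ADH2, GPM1 and UTH1 lie farthest below the 2-fold line among the named genes with at least 100 on both arrays, and SCS0390110, OXA1 and HXT1 farthest above it among the features under the same limit.

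The higher and the lower features differed in where they stood relative to the other strains. Among the 132 lower features, the Ssa4 intensity was farther than the Ssa3 intensity from the mean log2 intensity of Ssa1 and Ssa2 for 100 features. Among the 104 higher features it was farther for 50, and for the other 54 the Ssa3 array held the more distant value. The same count was not made over all features that met the limit. Whether these shares depart from those of the arrays in general is therefore not known. The features printed next to a feature were looked up on a grid that the feature names imply, and the median log2 ratio of Ssa4 to Ssa3 of up to 6 neighbours was taken. For the 54 higher features in which Ssa3 was more distant, the median of these neighbour values was 0.48, against 0.05 for the 50 in which Ssa4 was. For the 132 lower features it was -0.16, and for all features that met the limit it was -0.01. With the neighbour value subtracted, 50 of the 104 higher and 90 of the 132 lower features were still past 2-fold. The part of local signal on the array in the ratios was not tested. Of the 101 genes with a ratio past 2-fold that the naming rule gives, which include JJJ2 and SCJ1 with an intensity under 100 on an array, 100 had neighbours, and 28 of these were no longer past 2-fold with the neighbour value subtracted. They include FAS1, MRPL44, OPI3, PMT6, SEC63, SPB1, SPI1, SRD1, SYS1, TSA2 and YNL134C among the higher genes and ALD2, BAT2, ERG6, FKS1, HTB2, JJJ2, REE1, RPL16B, RPL1A, RPL7B, RPS12, RPS23B, RPS4B, SMF2, SSB1 and TIS11 among the lower ones. Further below, the median log2 ratio of the neighbours is given as "neighbours at" a value.

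**Figure D2:**
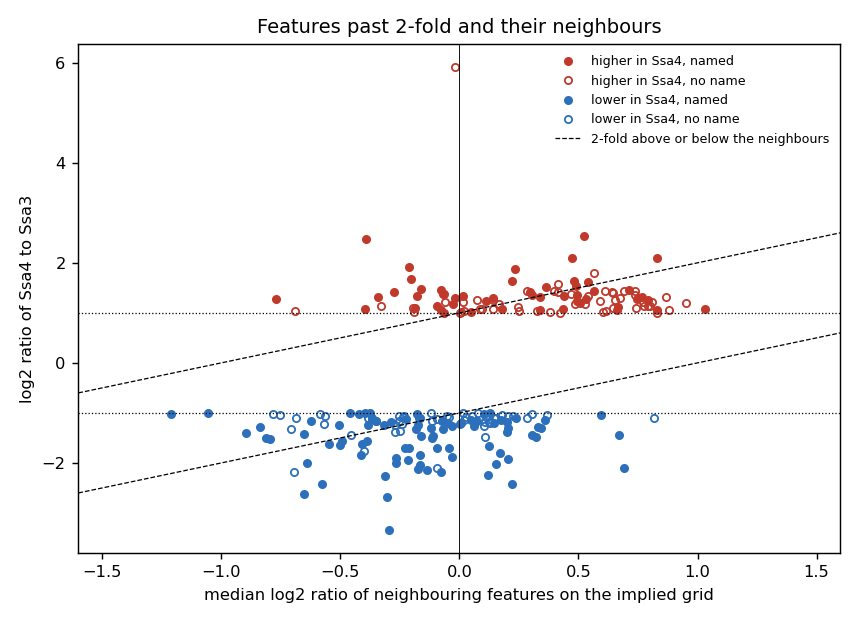
Log2 ratio of Ssa4 to Ssa3 of the features past 2-fold against the median log2 ratio of their neighbours on the implied grid; dashed lines mark 2-fold above or below the neighbours. Many higher features without a name lie to the right of 0, and 50 higher and 90 lower features lie beyond the dashed lines.

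Genes for the use of non-fermentable carbon sources had the lowest median ratio of the gene groups. Of 32 named genes of this group 26 had at least 100 on both arrays, and 16 of them were more than 2-fold lower in Ssa4 than in Ssa3, with 1 higher. The median log2 ratio of the 26 was -1.17, against 0.31 for all named genes, and 23 of them were lower in Ssa4. Their neighbours on the implied grid had a median of -0.01. Yeast turns these genes off while glucose is plentiful and needs them to live on ethanol or acetate. ADH2 (YMR303C), the alcohol dehydrogenase that oxidizes ethanol, read 10062, 2148, 3867 and 384 in the strains Ssa1, Ssa2, Ssa3 and Ssa4, in this order. It was 10.1-fold lower in Ssa4 than in Ssa3, the lowest ratio of all 3644 features with at least 100 on both, and Ssa4 was the lowest of the 4 strains. ACS1 (YAL054C), an acetyl-CoA synthetase that activates acetate, read 758, 467, 662 and 166 and was 4.00-fold lower in Ssa4 than in Ssa3, with neighbours at -0.64. The acetate permease gene ADY2 (YCR010C) read 5699.7, 3027, 2299 and 703 and was 3.27-fold lower. The glyoxylate cycle, which builds larger acids from acetyl units, was represented by ICL1 (YER065C), the isocitrate lyase, with 26197, 20566, 16310.4 and 5998. ICL1 was 2.72-fold lower in Ssa4 than in Ssa3, and its neighbours were on the higher side, at 0.30.

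The carnitine shuttle carries acetyl units into mitochondria, and each of its 3 genes in the group was lower in Ssa4. YAT1 (YAR035W), a carnitine acetyltransferase of the outer mitochondrial membrane, read 12021, 9134, 11248 and 2975 in the strains Ssa1 to Ssa4, a 3.78-fold difference between Ssa3 and Ssa4. YAT2 (YER024W), the cytosolic carnitine acetyltransferase, read 1446, 746, 1018 and 214 and was 4.75-fold lower. CRC1 (YOR100C), the inner membrane carnitine carrier, read 2274, 1392, 1517 and 663 and was 2.29-fold lower. For each of the 3 the fold difference between any pair of Ssa1, Ssa2 and Ssa3 was smaller than that between Ssa3 and Ssa4. Mitochondrial carriers and enzymes of the citrate and methylcitrate cycles were lower in Ssa4 as well. SFC1 (YJR095W), the succinate-fumarate carrier, read 4909, 3617, 4281 and 969.7 and was 4.41-fold lower in Ssa4 than in Ssa3. CIT3 (YPR001W), a mitochondrial citrate and methylcitrate synthase, read 874, 372, 707 and 132 and was 5.37-fold lower, with neighbours at -0.58. PDH1 (YPR002W), which acts next in the breakdown of propionate, read 875, 489, 575 and 127 and was 4.52-fold lower. The oxodicarboxylate carrier gene ODC1 (YPL134C) had a ratio of 0.452 and aconitase gene ACO1 (YLR304C) one of 0.496.

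SIP4 (YJL089W), an activator of gluconeogenic genes that Snf1 kinase regulates, read 633, 448, 617 and 173 in the strains Ssa1 to Ssa4 and was 3.57-fold lower in Ssa4 than in Ssa3. YJL045W, a minor succinate dehydrogenase subunit, had a ratio of 0.416, the enolase regulator gene REE1 (YJL217W) one of 0.441 and RGI2 (YIL057C), needed for energy metabolism during respiratory growth, one of 0.450. Ssa4 was the lowest of the 4 strains in 14 of the 16 lower genes, against 75 of the 83 lower named genes as a whole. A ratio past 2-fold itself favours this position, so it is no trait of the group. The exceptions among the 16 were ACO1 and YJL045W, for which Ssa2 was lower still, at 1396 and 522 against 2193 and 615 in Ssa4. The 1 gene of the group that was higher in Ssa4 was VID24 (YBR105C), whose product marks gluconeogenic enzymes for degradation when glucose returns. VID24 read 584, 1119, 983 and 2719, a 2.77-fold higher intensity in Ssa4 than in Ssa3.

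**Figure D3:**
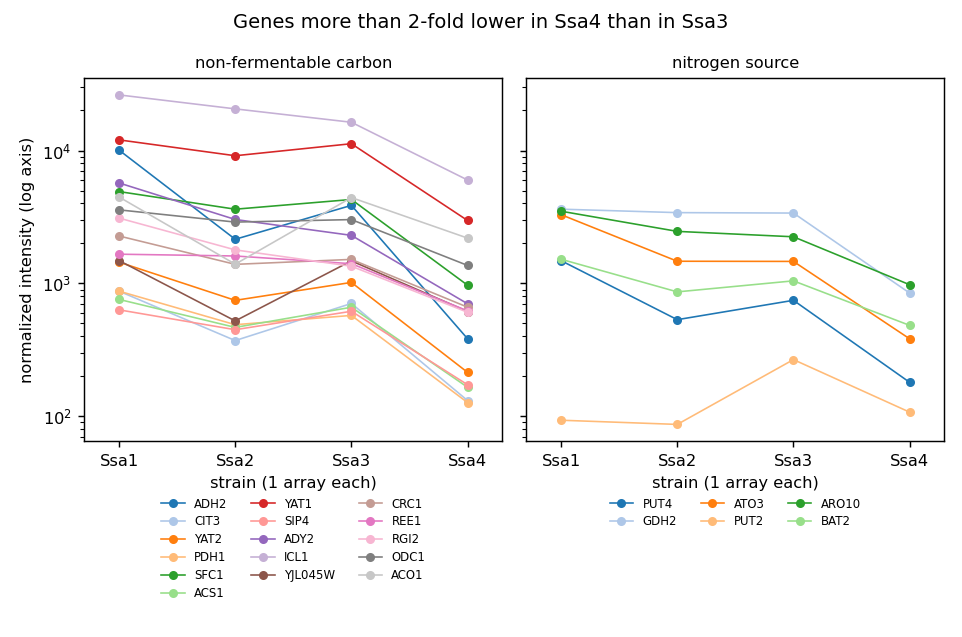
Normalized intensity (log axis) on the 4 arrays of the 16 genes of non-fermentable carbon use and the 6 genes of nitrogen source use that were more than 2-fold lower in Ssa4 than in Ssa3; each point is 1 array and lines join the points of a gene. The lines drop from Ssa3 to Ssa4, from 3867 to 384 for ADH2. Ssa1 is the highest strain for every gene shown except PUT2, while Ssa2 and Ssa3 keep no common order.

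Hexose transport genes differed in both directions. HXT1 (YHR094C), the low-affinity transporter that high glucose induces, read 39.5, 106, 120.4 and 668 in the strains Ssa1 to Ssa4. It was 5.54-fold higher in Ssa4 than in Ssa3 although its neighbours on the implied grid were lower, at -0.39. HXT7 (YDR342C), a high-affinity transporter that glucose represses, read 70.6, 194, 434 and 107 and was 4.06-fold lower in Ssa4 than in Ssa3. The study's RT-qPCR went the other way for HXT7, with a higher level in Ssa4 than in Ssa3. For HXT1 it went the same way as the array, with a smaller difference. HXT6, looked up after the values were seen and nearly identical to HXT7 in coding sequence, read 149.9, 276, 287 and 354, a ratio of 1.23, and whether its signal and that of HXT7 share transcripts cannot be told from intensities. GPM1 (YKL152C), the phosphoglycerate mutase of glycolysis, read 1706, 916, 4959 and 772 and was 6.42-fold lower in Ssa4, with Ssa3 the highest of the 4 strains. The other 9 of the 12 genes of hexose uptake and glycolysis with at least 100 on both arrays were within 2-fold, and the median log2 ratio of the 12 was 0.62.

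Genes for the use of nitrogen sources were also more often lower than higher. Of 26 named genes 16 had at least 100 on both arrays, and of these 6 were lower and 1 was higher in Ssa4, with a median log2 ratio of -0.69. PUT4 (YOR348C), the proline permease, read 1483, 534, 746 and 180.3 in the strains Ssa1 to Ssa4 and was 4.14-fold lower in Ssa4 than in Ssa3. PUT2 (YHR037W), which acts in the oxidation of proline to glutamate, read 93.5, 87.0, 267 and 108, so that here Ssa3 stood above the other 3 strains and Ssa4 lay near Ssa1 and Ssa2. GDH2 (YDL215C), the NAD-dependent glutamate dehydrogenase that releases ammonia from glutamate, read 3619, 3409, 3384 and 847 and was 4.00-fold lower in Ssa4 while the other 3 strains were close to each other. ATO3 (YDR384C), a plasma membrane protein linked to ammonium export, read 3291, 1469, 1464 and 383 and was 3.82-fold lower. The catabolic genes of aromatic and branched-chain amino acids ARO10 (YDR380W) and BAT2 (YJR148W) had ratios of 0.436 and 0.463. MUP3 (YHL036W), a low-affinity methionine permease, read 72.4, 150.0, 149 and 410.0 and was 2.75-fold higher.

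Amino acid biosynthesis genes showed no common direction, with 3 higher and 2 lower among 11. LYS12 (YIL094C), the homoisocitrate dehydrogenase of lysine synthesis, read 390.3, 343, 575 and 156 in the strains Ssa1 to Ssa4 and was 3.68-fold lower in Ssa4 than in Ssa3. ARG1 (YOL058W), the argininosuccinate synthetase, had a ratio of 0.401. LEU3 (YLR451W), the regulator of branched-chain amino acid synthesis, read 236, 258, 104 and 278. It was 2.68-fold higher in Ssa4 than in Ssa3, and Ssa3 was the lowest of the 4 strains, with neighbours at 0.30. SER33 (YIL074C), a phosphoglycerate dehydrogenase of serine synthesis, read 181, 258, 184 and 406, a ratio of 2.20, with Ssa4 the highest.

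Genes of the defence against oxidants, many of them known targets of the transcription factor Yap1, mostly had a higher intensity in Ssa4 than in Ssa3. Of 28 named genes 21 had at least 100 on both arrays, and 7 of these were more than 2-fold higher and 1 was lower. Of the 21, 19 had a higher intensity in Ssa4, against 265 of the 442 named genes. The median log2 ratio of the 21 was 0.86, and that of their neighbours on the implied grid -0.07. TRX2 (YGR209C), a cytosolic thioredoxin, read 7303, 13509, 10316 and 31659 in the strains Ssa1 to Ssa4. It was 3.07-fold higher in Ssa4 than in Ssa3, and its neighbours had a median log2 ratio of 0.54. OYE3 (YPL171C), an NADPH oxidoreductase of the old yellow enzyme family, read 197, 654, 654 and 2458 and was 3.76-fold higher, with neighbours at -0.21. In OYE3 the Ssa2 and Ssa3 strains had almost the same intensity, Ssa1 less and Ssa4 more. TSA2 (YDR453C), a cytosolic peroxiredoxin, read 880.3, 973, 1308 and 3163 and was 2.42-fold higher, with neighbours at 0.53. SRX1 (YKL086W), the sulfiredoxin that repairs oxidized peroxiredoxins, read 986, 1284, 1535 and 3456 and was 2.25-fold higher. ECM4 (YKR076W), an omega-class glutathione transferase, read 1588, 2016, 2948 and 7611, a ratio of 2.58. HSP31 (YDR533C), a methylglyoxalase and chaperone of the DJ-1 family, read 498, 3304, 2765 and 7010.1, a ratio of 2.54. FLR1 (YBR008C), a drug exporter of the plasma membrane that Yap1 controls, read 326, 416, 536 and 1395, a ratio of 2.60. In each of these 7 genes Ssa4 was the highest of the 4 strains, and in none was Ssa3 the lowest. Among the 52 higher named genes as a whole, Ssa4 was the highest in 42 and Ssa3 the lowest in 21.

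The 1 lower gene, GRX4 (YER174C), encodes a monothiol glutaredoxin that acts in iron regulation rather than in the reduction of peroxides. It read 256, 177, 294 and 107 in the strains Ssa1 to Ssa4 and was 2.75-fold lower in Ssa4 than in Ssa3. Genes of the group within 2-fold included AHP1, for an abundant peroxiredoxin, at a ratio of 1.68, SOD1, for superoxide dismutase, at 1.52, GLR1, for glutathione reductase, at 1.44, and GSH1, for the first step of glutathione synthesis, at 1.81. These 4 genes were picked as examples after their values were seen.

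Aldehyde and ketone reductase genes with at least 100 on both arrays numbered 16, of which 4 were more than 2-fold higher in Ssa4, 1 was more than 2-fold lower and 11 were within 2-fold. Of the 16, 13 had a higher intensity in Ssa4, against 265 of the 442 named genes, and the median log2 ratio of the 16 was 0.83. With the neighbour value subtracted 2 of the 4 were still past 2-fold. YNL134C, an aldehyde reductase, read 1138, 2986, 2502 and 6738 in the strains Ssa1 to Ssa4 and was 2.69-fold higher in Ssa4 than in Ssa3, with neighbours at 0.56. GRE2 (YOL151W), a methylglyoxal reductase, read 265, 492, 695 and 1734 and was 2.50-fold higher, with neighbours at -0.34. AAD4 (YDL243C), of the aryl-alcohol dehydrogenase family, read 62.2, 125, 137 and 351, and ARI1 (YGL157W), an aldehyde reductase, read 67.6, 84.6, 110.3 and 222. Their ratios were 2.56 and 2.01, and AAD4 belongs to a family of similar genes whose transcripts an oligonucleotide may not separate. The lower gene was ALD2 (YMR170C), a cytosolic aldehyde dehydrogenase, which read 468, 321, 584 and 205, with a ratio of 0.351 and neighbours at -0.80. ALD3, its adjacent close paralogue, looked up after the values were seen, read 671, 453, 1476 and 2932 and had a ratio of 1.99.

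**Figure D4:**
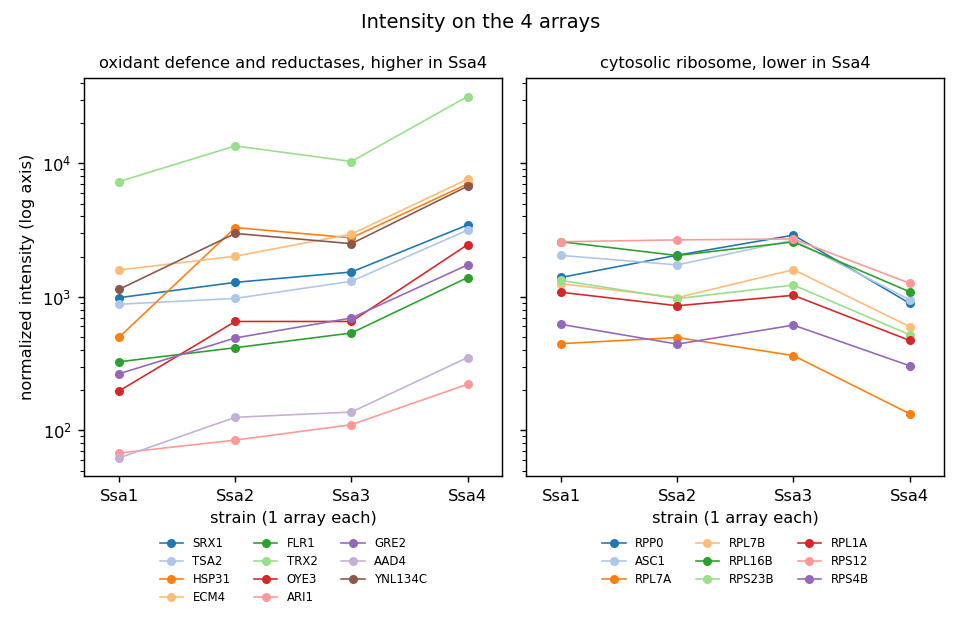
Normalized intensity (log axis) on the 4 arrays of the 11 genes of oxidant defence and aldehyde or ketone reduction that were higher in Ssa4 than in Ssa3 (left) and of 9 of the 11 cytosolic ribosome genes that were lower (right); each point is 1 array. All lines on the left have their highest point in Ssa4 and all lines on the right their lowest. Over all named genes, Ssa4 was the highest strain in 42 of the 52 higher and the lowest in 75 of the 83 lower ones.

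Chaperone genes were given in full because the strains differ in their only cytosolic Ssa protein. Of the 13 named cytosolic chaperone genes 11 had at least 100 on both arrays, none was more than 2-fold higher and 2 were more than 2-fold lower in Ssa4. HSP82 (YPL240C), the inducible Hsp90, read 1124, 1121, 1439.7 and 442 in the strains Ssa1 to Ssa4 and was 3.26-fold lower in Ssa4 than in Ssa3. SSB1 (YDL229W), the Hsp70 of the ribosome, read 1279.7, 1170.3, 1442 and 607 and was 2.38-fold lower, with neighbours at -0.50. Ssa4 was the lowest and Ssa3 the highest of the 4 strains for both. SSB2 (YNL209W), which encodes a nearly identical protein, read 1043, 838, 827 and 525, a ratio of 0.634, and the oligonucleotides may not separate SSB1 from SSB2 or HSP82 from its constitutive paralogue. The Hsp110 genes SSE1 (YPL106C) and SSE2 (YBR169C) had ratios of 0.937 and 1.54. SSE1 read 1514, 1729.5, 3204 and 3002, higher in Ssa3 and Ssa4 than in the other 2, and the Ssa3 and Ssa4 strains were close to each other here.

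Among the cytosolic chaperone genes with at least 100 on both arrays, those of cyclophilins came closest to 2-fold on the higher side. CPR6 (YLR216C), a cyclophilin that binds Hsp90, had a ratio of 1.95 with neighbours at 0.72, and CPR1 (YDR155C) had one of 1.86 with neighbours at 0.14. The ratios of the J-protein gene APJ1 (YNL077W), of SGT2 (YOR007C), which passes tail-anchored proteins on, of the membrane stress protein gene HSP30 (YCR021C) and of the prefoldin gene GIM5 (YML094W) were 1.72, 1.64, 1.26 and 1.18. JJJ2 (YJL162C), a J-protein gene, read 5.46 in Ssa3 and 1.96 in Ssa4, near the lowest intensities of the arrays, so its ratio is not given. Mitochondrial chaperones were higher but within 2-fold, with ratios of 1.51 for the matrix Hsp70 gene SSC1 (YJR045C), 1.51 for its J-protein partner MDJ1 (YFL016C) and 1.97 for the co-chaperonin gene HSP10 (YOR020C). MDJ2 (YNL328C), a second J-protein gene of mitochondria, read 32.7 in Ssa3 and 45.0 in Ssa4, both under the limit. SCJ1 (YMR214W), a J-protein of the endoplasmic reticulum lumen, read 296, 382, 179 and 23.2 in the strains Ssa1 to Ssa4. Its Ssa4 intensity lay under the limit of 100, which kept it out of the 132 lower features, and its neighbours stood at -1.46.

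Cytosolic ribosome genes were lower in Ssa4. Of 32 named genes 21 had at least 100 on both arrays, 11 of them were more than 2-fold lower, 1 was higher and 20 had a lower intensity in Ssa4. The median log2 ratio was -1.01 and the differences of the 11 lower genes reached 3.24-fold. RPP0 (YLR340W), the stalk protein that binds elongation factors, read 1398, 2051, 2899.6 and 896 in the strains Ssa1 to Ssa4 and was 3.24-fold lower in Ssa4 than in Ssa3. ASC1 (YMR116C), the scaffold on the head of the small subunit, read 2043, 1735, 2663 and 952 and was 2.80-fold lower. RPL7A (YGL076C) read 446, 496, 363 and 133 and its paralogue RPL7B (YPL198W) read 1254, 986, 1598 and 599, with ratios of 0.367 and 0.375, and neighbours at 0.67 and -0.65. Further ratios were 0.423 for RPL16B (YNL069C), 0.425 for RPS23B (YPR132W), 0.459 for RPL1A (YPL220W), 0.466 for RPS12 (YOR369C) and 0.496 for RPS4B (YHR203C). Ssa4 was the lowest strain in all 11, against 75 of the 83 lower named genes as a whole. Many yeast ribosomal proteins have a paralogue of nearly the same sequence, from which the signal may not be separate. With the neighbour value subtracted 4 of the 11 were still past 2-fold. RPL27B (YDR471W) was the exception, with 325, 980.0, 992 and 2123 and a ratio of 2.14.

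Of 11 ribosome assembly genes 3 were higher and 1 was lower in Ssa4. RLI1 (YDR091C), which splits ribosomes for reuse, read 267, 202, 226 and 102 in the strains Ssa1 to Ssa4, a ratio of 0.450. RNH70 (YGR276C), an exoribonuclease that trims RNA ends, read 199, 306, 142 and 440.0 and was 3.10-fold higher in Ssa4 than in Ssa3, with neighbours at 0.48. SPB1 (YCL054W), an rRNA methyltransferase, read 265, 284, 118 and 247 and was 2.08-fold higher, with neighbours at 0.66. For both of these the Ssa3 strain was the lowest of the 4. SRD1 (YCR018C), linked to rRNA processing, had a ratio of 2.02, with Ssa4 the highest strain.

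Cell wall genes were lower in Ssa4 more often than higher, with 7 lower and 2 higher among 14 and a median log2 ratio of -1.06. UTH1 (YKR042W), of the SUN family, which is found in the wall and linked to mitochondria, read 603, 645, 918 and 149 in the strains Ssa1 to Ssa4. It was 6.17-fold lower in Ssa4 than in Ssa3, with neighbours at -0.65. SIM1 (YIL123W), of the same family, read 1204, 1075, 785 and 182 and was 4.32-fold lower although its neighbours were higher, at 0.69. TOS6 (YNL300W), a wall protein with a GPI anchor, read 772, 1069.9, 854 and 159 and was 5.39-fold lower, with neighbours at 0.22. The glucan synthase gene FKS1 (YLR342W) read 807, 861, 1019.6 and 383 and was 2.66-fold lower, with neighbours at -0.90. GAS1 (YMR307W), which elongates glucan chains, read 873, 1157, 703 and 286 and was 2.46-fold lower, with neighbours on the higher side at 0.34. The glucanase gene SCW4 (YGR279C) had a ratio of 0.437 and YNL190W, a wall protein of the hydrophilin kind, one of 0.339. For YNL190W the Ssa3 intensity of 1590.2 stood above all others and Ssa4, at 539, was as high as Ssa2, at 537. Higher in Ssa4 were SPI1 (YER150W), a GPI-anchored wall protein that weak acids induce, with 6534, 9407, 9904 and 27248, and PMT6 (YGR199W), a protein O-mannosyltransferase, with 975, 1061, 413 and 864. The ratio of SPI1 was 2.75 with neighbours at 0.71. That of PMT6 was 2.09 with neighbours at 0.83, and here Ssa3 was the lowest strain and Ssa4 lay below Ssa1 and Ssa2.

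Genes of the secretory pathway and of lipid synthesis fell on both sides of 2-fold. OCH1 (YGL038C), the Golgi mannosyltransferase that starts the outer chain of N-glycans, read 434, 284, 497 and 138 in the strains Ssa1 to Ssa4 and was 3.60-fold lower in Ssa4 than in Ssa3, with neighbours at -0.41. SEC63 (YOR254C), a J-protein of the translocon of the endoplasmic reticulum, read 433, 642, 193 and 419, a ratio of 2.17. SYS1 (YJL004C), a Golgi membrane protein, read 345, 351, 126 and 323, a ratio of 2.56. FAS1 (YKL182W), the beta subunit of fatty acid synthase, read 1537, 1202, 459 and 968 and OPI3 (YJR073C), a phospholipid methyltransferase, read 5521, 6446, 2087 and 5215, with ratios of 2.11 and 2.50. All 4 of these higher genes had their lowest intensity in Ssa3 and an Ssa4 intensity below those of Ssa1 and Ssa2. Their neighbours had median log2 ratios of 0.67 for SEC63, 0.49 for SYS1, 1.03 for FAS1 and 0.77 for OPI3, and with these subtracted none of the 4 was past 2-fold. The ergosterol synthesis genes ERG5 (YMR015C) and ERG6 (YML008C) were lower, with ratios of 0.425 and 0.496.

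Respiratory chain genes were mostly within 2-fold. Of 20 with at least 100 on both arrays 2 were higher and 1 was lower, and the median log2 ratio was 0.48. OXA1 (YER154W), which inserts proteins into the inner mitochondrial membrane, read 832, 907, 166 and 958 in the strains Ssa1 to Ssa4. Its 5.77-fold higher intensity in Ssa4 than in Ssa3 was the highest ratio of a named gene with at least 100 on both arrays, but Ssa4 was close to Ssa1 and Ssa2 and the Ssa3 strain was the one that stood apart, with neighbours at 0.52. CYC7 (YEL039C), the cytochrome c isoform made when oxygen is scarce, read 200.1, 608, 568 and 1636 and was 2.88-fold higher, with Ssa4 the highest strain and neighbours at 0.49. PET9 (YBL030C), the main ADP/ATP carrier, read 352, 345, 530.1 and 171 and was 3.09-fold lower, with neighbours at -0.41. Of 29 genes of mitochondrial ribosomes, MRPL44 (YMR225C) and YML6 (YML025C) were higher, with ratios of 2.11 and 2.09, and MRP1 (YDR347W) was lower, with a ratio of 0.383.

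**Figure D5:**
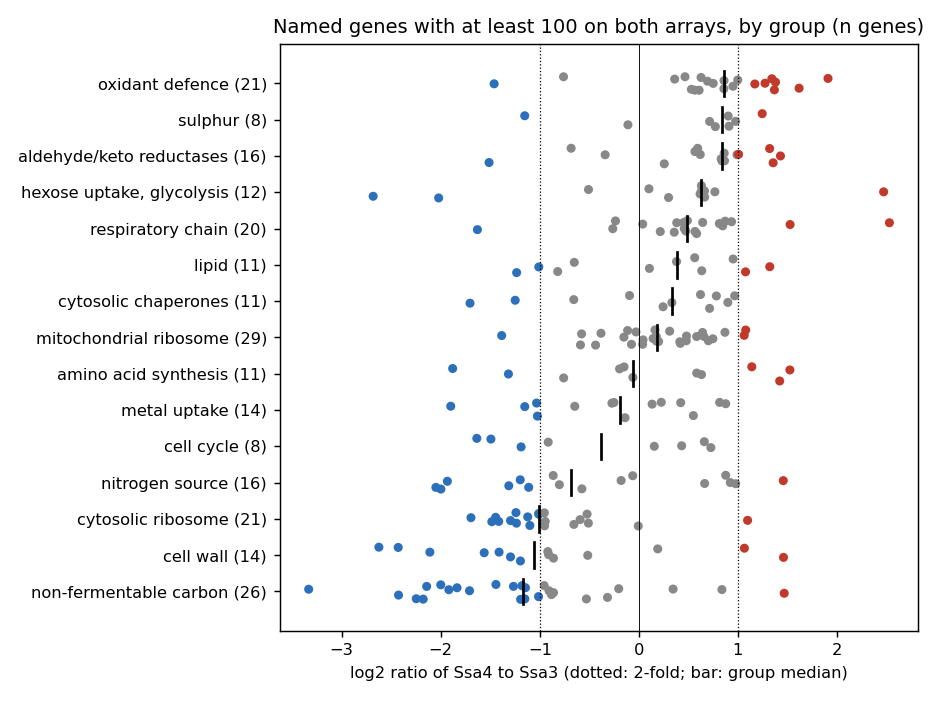
Log2 ratio of Ssa4 to Ssa3 of the named genes with at least 100 on both arrays in 15 functional groups, ordered by their median (bar); each point is 1 gene, red above and blue below 2-fold. Genes of non-fermentable carbon use have the lowest median, -1.17. Those of oxidant defence have the highest, 0.86, close to sulphur genes at 0.84 and aldehyde and ketone reductase genes at 0.83.

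Metal uptake genes included 4 lower and no higher genes among 14, where 18.8% of all named genes were lower. The 14 genes showed little common direction, with 6 higher and 8 lower in intensity in Ssa4 and a median log2 ratio of -0.20. With the neighbour value subtracted 2 of the 4 were still past 2-fold. FRE7 (YOL152W), a metalloreductase that copper shortage induces, read 1105, 1542, 2629 and 705 in the strains Ssa1 to Ssa4 and was 3.73-fold lower in Ssa4 than in Ssa3. The manganese transporter gene SMF2 (YHR050W) had a ratio of 0.450 with neighbours at -0.62. TIS11 (YLR136C), which directs mRNA decay in iron shortage, read 363, 1182, 804 and 395, and ZPS1 (YOL154W), which zinc shortage induces, read 2900.0, 6161, 1258 and 615. Their ratios were 0.492 and 0.489, and for both Ssa2 was the highest strain. Of 8 cell cycle genes 3 were more than 2-fold lower and 0 higher, where 18.8% of all named genes were lower. The 8 genes showed no common direction. In Ssa4 4 had a higher and 4 a lower intensity, with a median log2 ratio of -0.38. CLN2 (YPL256C), a G1 cyclin, read 229, 206, 338 and 109, with neighbours at -0.50. HTB2 (YBL002W), for histone H2B, read 350.0, 347, 334 and 119, with neighbours at -0.81, and POL30 (YBR088C), the replication clamp, read 679, 693, 688 and 302, with neighbours at 0.20. These were 3.11-fold, 2.82-fold and 2.28-fold lower in Ssa4 than in Ssa3, and Ssa4 was the lowest strain for each.

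The 12 highest and the 12 lowest named genes held 7 that fall outside the groups above. ASI3 (YNL008C), part of a ubiquitin ligase of the inner nuclear membrane, read 502, 534, 169 and 723 in the strains Ssa1 to Ssa4, and UBP10 (YNL186W), a deubiquitinase that acts on histone H2B, read 1646, 1767, 467 and 1702. They were 4.28-fold and 3.65-fold higher in Ssa4 than in Ssa3, and as for OXA1 the Ssa3 value was the farthest from the other 3, with neighbours at 0.47 and 0.23. In the study's RT-qPCR, UBP10 had the same level in Ssa3 and Ssa4. YNR014W read 55.6, 188, 136 and 576, a ratio of 4.25, with neighbours at 0.83, YNL234W, a globin-like protein, read 90.3, 212, 172 and 553, a ratio of 3.21, and YLL056C read 952, 964, 915 and 2846, a ratio of 3.11. For these 3 Ssa4 was the highest strain. PMA2 (YPL036W), an isoform of the plasma membrane proton pump with little expression in most conditions, read 573, 172, 723 and 151 and was 4.79-fold lower, and its close paralogue PMA1, looked up after the values were seen, had a ratio of 0.364. ICS2 (YBR157C), of unknown function, read 731, 228, 551 and 127 and was 4.33-fold lower. Among features left without a name and with at least 100 on both arrays, SCS0390110 had the highest ratio, 60.2, with 91.9, 121, 166 and 10024, and neighbours at -0.02. SCS0530304 had the lowest, 0.221, with 2732, 1564, 2945 and 649.6.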

How the data were processed

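The authors hybridized Cy5-labelled amplified RNA of each strain to 1 oligonucleotide chip (Toray 3D-Gene). They subtracted the background from the spot intensity and scaled each array by its median, and deposited the resulting normalized intensities, which are linear. The deposited description gives 8 pooled extractions per strain, and the study's methods give a smaller number. Values were present for 5780 features in Ssa3 and 5776 in Ssa4, and the medians were 200.4 and 201. Since each array was scaled to its own median, a change in the total amount of mRNA does not show. Depth does not apply to arrays, and 1 array per strain limits the precision.

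Ratios were formed without an offset, and 2-fold with at least 100 on both arrays was the limit. Names came from 946 features whose 4 intensities equalled those of a row of the study's gene list within a relative difference of 2e-05, whereas no row did with its columns moved by 1 place. Of these, 73 were left unnamed since name, locus and description disagreed with RefSeq R64, 12 of them past 2-fold. The study lists only genes past 2-fold from Ssa1 in at least 1 strain, so 15.1% of features have a name. Named are the 12 highest and 12 lowest genes, the genes of groups with at least 3 past 2-fold, all chaperones, and the highest and lowest features without a name, except 3 genes that are not reported here. The features and the 32 gene groups were chosen with earlier results of these data known. No column of the authors' comparisons was used. Their RT-qPCR covered only some of the genes named here and entered no ratio. Its direction between Ssa3 and Ssa4 was that of the array for ADH2, OYE3, TOS6, YNR014W, CLN2, ARO9, HSP31 and SCJ1. For HSP31 and SCJ1 the difference was much smaller than on the array. Neighbours lie 1, 14 or 15 positions away in the same of 32 blocks, with at least 3 of 6 measured. The feature names imply this grid, the deposited data do not state it, and the distances were picked from correlations in the same data. The alternatives were equal medians, quantile normalization, a lowess curve (fraction 0.4), an offset of 50, limits of 200 on both arrays, 100 on at least 1 or none, a 3-fold threshold and subtraction of the neighbour median. The counting code was run on simulated data with changes set well past 2-fold, which tests the code but not the calls in these data. The genome build of the probes is not given in the sources used here, so no coordinates are printed. Python 3.11.15, numpy 2.4.6, pandas 2.3.3, statsmodels 0.14.6 and matplotlib 3.10.9 were used.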

Additional observations from a re-analysis of the deposited data

How the results depend on the processing

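Equal medians, quantile normalization, the lowess curve, the offset of 50 and the limit of 100 on at least 1 array left the counts of 104 higher and 132 lower features, and those of the 6 groups described first, within 1.5 times their values. A limit of 200 on both arrays gave 58 higher features, 2 higher reductase genes and 4 lower cell wall genes. Without a limit 158 features were higher and 384 lower, with 20 lower ribosome, 12 lower cell wall and 12 lower nitrogen source genes, most of the added features being dim. A 3-fold threshold left 12 higher and 34 lower features, with 2 higher oxidant defence genes, 0 higher reductase genes, 9 lower genes of non-fermentable carbon use, 1 lower ribosome gene, 3 lower cell wall genes and 3 lower nitrogen source genes. Subtraction of the neighbour median left 4 lower ribosome genes. It gave 120 higher and 120 lower features, of which 50 and 90 were among the 104 and 132. The limits and the 3-fold threshold do not alter a ratio. Under the other alternatives none of the 101 genes past 2-fold that the naming rule gives changed direction. Most of their ratios shifted little, so this outcome says little. With the neighbour median subtracted 28 of the 100 with measured neighbours were no longer past 2-fold. With the offset this held for 15, after quantile normalization for 7 and with the lowess curve for 6. No array could be left out, since each strain has 1. No paired analysis was possible because each strain has 1 array and no test was made.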

Other observations

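The limit of 100 on both arrays left out genes that were bright on only 1 of them. Of the 4039 features that reached 100 on at least 1 array, 3644 reached it on both. Among the rest, 34 features past 2-fold reached 100 in Ssa4 but not in Ssa3, and 59 in Ssa3 but not in Ssa4. Each of these passed only through the array where it was high, so they add no support to the results above. The genes named from these were chosen after their values were seen. HXT4 (YHR092C), a glucose transporter gene like HXT1, read 64.8, 153, 89.5 and 1391 in the strains Ssa1 to Ssa4, 15.5-fold higher in Ssa4 than in Ssa3, with neighbours on the implied grid at 0.74. The glutathione peroxidase gene GPX2 (YBR244W) read 61.4, 59.1, 60.3 and 192, and the aryl-alcohol dehydrogenase gene AAD16 (YFL057C) read 113, 119, 96.6 and 574, with neighbours at 0.57 and 0.67. The nuclear peroxiredoxin gene DOT5 (YIL010W) read 600.2, 656, 96.2 and 477, so that its Ssa3 value alone stood apart, with neighbours at 1.17.

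Among genes that dropped under the limit in Ssa4, MLS1 (YNL117W), the malate synthase that follows Icl1 in the glyoxylate cycle, read 616, 289.6, 373 and 79.9. ACH1 (YBL015W), an acetyl-CoA hydrolase, read 373, 196, 306 and 74.8, POX1 (YGL205W), the first enzyme of fatty acid oxidation in peroxisomes, read 264, 139.6, 238 and 91.9, and STL1 (YDR536W), a glycerol importer, read 147, 68.4, 213 and 48.4. With at least 100 on at least 1 array, 20 of 31 genes of non-fermentable carbon use were more than 2-fold lower in Ssa4. The share among the 544 named genes under this limit was 21.7%. The 4 genes met this limit only through the Ssa3 array, where they were higher, so they add no support to the group result. ARO9 (YHR137W), an aromatic aminotransferase that works with Aro10, read 442, 365, 222 and 46.7. The catalase genes CTA1 (YDR256C) and CTT1 (YGR088W) read 302, 103, 237 and 93.1 and 116, 46.2, 156 and 70.7, lower in Ssa4 than in Ssa3, unlike most genes of oxidant defence.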
